A study of Caenorhabditis elegans with 16 samples.

Results

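Caenorhabditis elegans animals expressing SKN-1t[NNNN] were compared with wild type animals by RNA-seq of whole L4 larvae, with 4 samples in each group. These 8 samples are those whose labels name the SKN-1t[NNNN] transgene or the non-transgenic control, out of 16 samples and 4 groups in the series. SKN-1t is a shortened SKN-1 protein that lacks the N-terminal transmembrane domain which sends the SKN-1A isoform to the endoplasmic reticulum, and it is active without a stress. It was made from a single-copy transgene (mgTi21) under the ubiquitous rpl-28 promoter, with an HA tag at its N-terminus and GFP at its C-terminus. The suffix [NNNN] states that all 4 asparagines of its N-glycosylation motifs were left as they are, so that it stands for the form that has not been sequence edited. The strain, GR3105, also carries unc-119(ed3) on chromosome III, an allele that the wild type strain N2 lacks. The transgenic group therefore differs from wild type in the transgene, in the unc-119 background and in anything else that sets this single strain apart, and these cannot be told apart here. The remaining groups, SKN-1t[NDNN] and SKN-1t[DNDD], carry asparagine to aspartate changes at 1 and 3 of the 4 sites in the same unc-119(ed3) background. The comparison asks which genes respond when the unedited sequence is active, and the account below covers gene groups other than the proteasome, the glutathione S-transferases and the UDP-glucuronosyltransferases.

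SKN-1 is the only worm relative of the mammalian factors Nrf1 and Nrf2. It binds DNA near genes for glutathione synthesis, conjugating enzymes and other parts of the defence against oxidants and foreign compounds, and it is expressed in the intestine among other tissues. In the intestine the same cells also make yolk, digest food, secrete antimicrobial proteins and store fat. Gene groups for each of these roles were therefore counted. Groups that follow the larval moults were counted too, since an L4 culture is a mixture of moments between the L3 and adult cuticles.

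Per sample, 23806929 to 28694871 reads were assigned to genes. Of 19122 genes in the count table, 14192 passed the filter on low counts. A gene was called when its level differed by more than 2-fold with an adjusted p below 0.01 (edgeR quasi-likelihood test with the replicate number as a block, Benjamini-Hochberg over all genes tested). By this rule 897 genes rose (6.32% of those tested) and 750 fell (5.28%), and each count of a gene group below is to be read against these percentages. In 20.9% of genes tested every SKN-1t[NNNN] sample lay above every wild type sample, and in 17.5% every one lay below. Without the block 997 genes rose (7.03%) and 869 fell (6.12%). The counts leaned on replicate pair 2: without it 244 genes rose and 278 fell, against 847 and 768 without pair 1. For this reason a group count that moved by more than 1.5 times is followed by the counts with pair 1, 2, 3 and 4 omitted, in that order, or by the calls lost, and smaller moves are given for some groups. The median log2 fold change over all genes tested was 0.11. The study's methods state that biological replicates were independent populations of animals, which the sample labels themselves do not say. Levels are given in CPM, read counts scaled by TMM and expressed relative to the library size, in the order of replicates 1, 2, 3 and 4. Most genes given with their levels were chosen among called genes whose groups did not overlap. Lack of overlap in them is therefore a description and adds no support to the call.

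Reads assigned to skn-1 (chromosome IV, positions 5651039 to 5660384, minus strand in WBcel235) came from both the transgene and the native gene, and these cannot be separated. The skn-1 level was 123, 117, 103.998 and 109 CPM in wild type and 331, 301, 297 and 280.4 CPM in SKN-1t[NNNN]. All 4 transgenic samples lay above all wild type samples (log2 fold change 1.42, SE 0.08, adjusted p = 0.000368). The level of unc-119, the gene named in the background allele, was 9.18, 8.98, 8.39 and 8.83 CPM in wild type and 14.8, 14.2, 15.9 and 15.1 CPM in SKN-1t[NNNN]. The groups did not overlap, but the change was under the 2-fold limit (log2 fold change 0.76, SE 0.11, adjusted p = 0.00454).

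All 6 yolk genes and 3 of 9 adult cuticle genes fell in SKN-1t[NNNN], 10 of 23 moulting factors rose, and lysosomal proteases and lysozymes fell more often than they rose. Yolk, adult cuticle and moulting genes are known to follow developmental time, so these stage lists are given before most other groups. Of 23 moulting factors, 10 rose and 1 fell, with a median log2 fold change of 1.13 (up 14, 2, 5 and 3, down 1, 1, 0 and 1 with each pair omitted). Of 9 genes of the adult cuticle, 3 fell (col-7, col-19 and col-62) and none rose, with a median of -2.98 (up 1, 0, 0 and 0 with each pair omitted). The mean log2 level of the adult cuticle list, set against the wild type mean, was -0.75, 0.05, 0.23 and 0.47 in wild type and -4.77, -3.78, -2.77 and -2.24 in SKN-1t[NNNN]. The same measure for the moulting list was 0.64, 0.01, -0.52 and -0.13 in wild type and 1.15, 1.33, 1.44 and 1.32 in SKN-1t[NNNN]. The groups did not overlap in either list. Wild type replicate 1 was nearest to the transgenic samples in both lists. Whether the 2 groups were collected at the same point of the L4 stage was not tested, and in bulk RNA fewer cells of a type and less RNA per cell cannot be told apart.

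Tissue markers moved by smaller amounts. Of 12 intestine markers, 4 fell (cpr-1, mtl-2, elt-7 and ges-1), none rose, and the median was -0.90 (down 6, 3, 4 and 4 with each pair omitted). Their summed level was 12844 to 17662 CPM in wild type and 9045 to 11069.8 CPM in SKN-1t[NNNN]. Of 10 hypodermis markers, 4 rose (elt-1, elt-3, elt-6 and dpy-7), none fell, and the median was 0.74 (up 4, 2, 3 and 2 with each pair omitted). Their summed level was 517 to 1076 CPM in wild type and 1002 to 1285 CPM in SKN-1t[NNNN]. Body wall muscle markers had 1 call of 12 (hlh-1, higher, and called in no fit with a pair omitted), and pharynx markers had 1 in each direction of 11 (marg-1 higher, lost without pair 2, and pha-4 lower, lost without pair 1, 2 or 3). Of 12 neuron markers none was called by edgeR, 7 were higher at an unadjusted p below 0.05, and DESeq2 called none. Yolk, fat storage, lysosomal digestion and many antimicrobial proteins are known from the intestine, and cuticle and moult genes from the hypodermis, and the part of these marker differences in the counts below was not tested. Over the stage, tissue and germline lists, phat-1, col-7, vit-5 and puf-7 were each at 0 in 1 sample, and no other member was at 0.

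**Figure D1:**
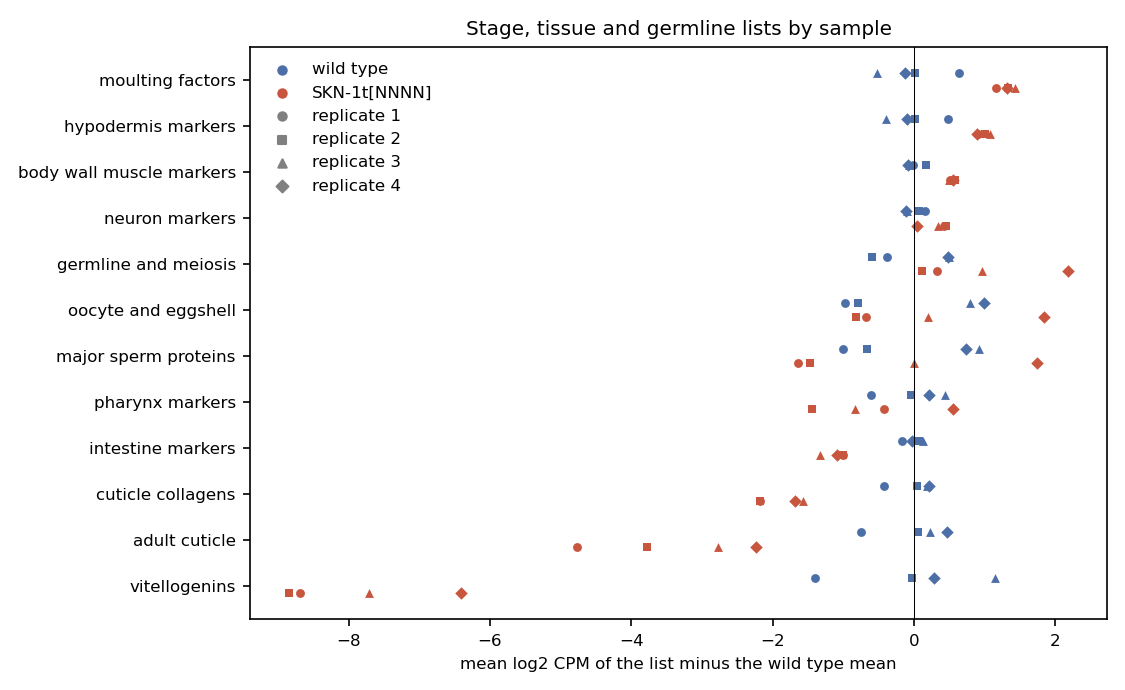
Mean log2 CPM of 12 stage, tissue and germline lists in each sample minus the wild type mean of the same list, with marker shape for the replicate and color for the group. Vitellogenins (-8.84 to -6.40) and the adult cuticle (-4.77 to -2.24) lay far below wild type in all 4 SKN-1t[NNNN] samples, the moulting list lay above it (1.15 to 1.44), and the major sperm proteins overlapped.

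The marker of intestinal identity ges-1, a gut esterase, was at 101, 118, 104.4 and 102 CPM in wild type and 39.5, 42.2, 32.3 and 41.3 CPM in SKN-1t[NNNN]. All 4 transgenic samples lay below all wild type samples, and ges-1 fell 2.75-fold (log2 fold change -1.46, SE 0.09, adjusted p = 0.000521). The intestinal GATA factor elt-7 fell 2.82-fold (log2 fold change -1.496, SE 0.12, adjusted p = 0.000816). The hypodermal GATA factor elt-3, which is also known to act with SKN-1, was at 21.5, 15.9, 22.1 and 19.6 CPM in wild type and 68.7, 63.3, 57.9 and 46.5 CPM in SKN-1t[NNNN]. It rose 2.98-fold with no overlap between the groups (log2 fold change 1.58, SE 0.14, adjusted p = 0.00112).

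Among 16 known regulators and partners of SKN-1, 3 rose and none fell: skn-1 itself, elt-3 and wdr-23. WDR-23 is the adaptor of a CUL-4/DDB-1 ubiquitin ligase that holds SKN-1 down. The level of wdr-23 (WBGene00008419, chromosome I, positions 7595776 to 7602221, plus strand) was 58.0, 58.3, 55.2 and 52.1 CPM in wild type and 353, 349.7, 304 and 246 CPM in SKN-1t[NNNN]. The groups were far apart, with replicate 4 the lowest of the transgenic samples, and wdr-23 rose 5.55-fold (log2 fold change 2.47, SE 0.10, adjusted p = 0.00018). Of 15 genes that textbooks list as SKN-1 targets, 8 rose and 1 fell, with a median log2 fold change of 2.80 (down 1, 0, 0 and 1 with each pair omitted, and 2 without the block). The list includes 4 glutathione S-transferases among the 8 that rose (gst-4, gst-10, gst-30 and gst-38), and the rest were gcs-1, nit-1, dhs-8 and sdz-8. It holds genes that were chosen elsewhere for their response to skn-1, and it was compiled with results of these data known, so its count is a description.

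The enzyme that limits glutathione synthesis, gamma-glutamylcysteine synthetase (gcs-1, WBGene00001527, chromosome II, positions 9035562 to 9038301, minus strand), was at 109.8, 109, 90.6 and 103 CPM in wild type and 818, 795, 688 and 587 CPM in SKN-1t[NNNN]. Every transgenic sample lay above every wild type sample, and gcs-1 rose 6.96-fold (log2 fold change 2.80, SE 0.11, adjusted p = 0.00015). The next enzyme of the path, glutathione synthetase gss-1, was at 106, 103, 97.7 and 96.1 CPM in wild type and 235.3, 254, 231 and 196.3 CPM in SKN-1t[NNNN]. It also rose without overlap, by 2.26-fold (log2 fold change 1.18, SE 0.08, adjusted p = 0.000666). In the list of 20 glutathione and thioredoxin genes these 2 and the glutathione peroxidase gpx-2 rose, and the thioredoxin trx-3 fell (up 3, 2, 3 and 4, down 1, 0, 0 and 0 with each pair omitted).

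The enzymes that remove hydrogen peroxide went in opposite directions. The peroxiredoxin prdx-2 was at 862, 1008, 828 and 902 CPM in wild type and 2493, 2521, 2499 and 2286 CPM in SKN-1t[NNNN]. It rose 2.73-fold, and its 4 transgenic samples were close to each other (log2 fold change 1.45, SE 0.09, adjusted p = 0.00045). The peroxisomal catalase ctl-2 was at 239, 286, 243 and 241 CPM in wild type and 116, 133, 111 and 123 CPM in SKN-1t[NNNN]. It fell 2.09-fold with no overlap (log2 fold change -1.06, SE 0.08, adjusted p = 0.000701). The cytosolic catalase ctl-1 fell 2.11-fold (log2 fold change -1.08, SE 0.12, adjusted p = 0.00224), and this call was lost without replicate pair 2 (adjusted p = 0.017) and replicate pair 3 (adjusted p = 0.0125). The third catalase, ctl-3, went from at most 1.04 CPM in wild type to 5.43 to 6.83 CPM (log2 fold change 3.15, SE 0.26, adjusted p = 0.000934). The 3 catalase genes are close copies that lie side by side, and how reads matching several of them were assigned is not stated, so their individual values are uncertain. Of 17 genes for superoxide, peroxide and iron, prdx-2 and ctl-3 rose, and ctl-1, ctl-2 and the metal transporter smf-3 fell, with a median of 0.01 (down 3, 1, 2 and 3 with each pair omitted).

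Enzymes that oxidize and reduce foreign compounds and lipids were divided. Of 56 cytochromes P450, 4 rose and 14 fell, with a median log2 fold change of -0.49 (up 4, 2, 3 and 3, down 10, 7, 8 and 12 with each pair omitted). The cyp-35 subfamily, whose members are known for induction by foreign compounds, was counted after its values were seen. Of 8 cyp-35 genes tested 7 fell and none rose, with log2 fold changes of -3.58 to -0.78 over the 8. The level of cyp-35A2 was 209.8, 252, 222 and 300.3 CPM in wild type and 45.1, 52.4, 48.4 and 107 CPM in SKN-1t[NNNN]. All transgenic samples lay below wild type, with replicate 4 the highest of them, and cyp-35A2 fell 4.12-fold (log2 fold change -2.04, SE 0.16, adjusted p = 0.000794). The largest fall in the family was that of cyp-35A5, from 15.8, 15.7, 19.4 and 26.03 CPM to 0.782, 0.853, 1.68 and 4.51 CPM (log2 fold change -3.58, SE 0.34, adjusted p = 0.00134). In the other direction cyp-13B1 was at 5.83, 3.22, 2.59 and 3.38 CPM in wild type and 31.3, 27.9, 38.5 and 23.3 CPM in SKN-1t[NNNN], a rise of 8.21-fold without overlap (log2 fold change 3.04, SE 0.26, adjusted p = 0.000975). The P450 genes cyp-23A1, cyp-13A10 and cyp-34A1 also rose, with log2 fold changes of 1.94 to 5.35.

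Among 29 short-chain dehydrogenases (dhs genes), 7 rose and 7 fell (up 7, 3, 6 and 5, down 7, 3, 5 and 6 with each pair omitted). The largest rise was that of dhs-8, at 1.58, 0.886, 1.24 and 1.5004 CPM in wild type and 106, 89.1, 75.6 and 45.7 CPM in SKN-1t[NNNN]. The transgenic samples were spread widely with replicate 4 the lowest, yet all were far above wild type (log2 fold change 5.86, SE 0.29, adjusted p = 0.000305). The largest fall of the family was that of dhs-26 (log2 fold change -4.69). Of 14 aldehyde and alcohol dehydrogenases, 4 rose and 2 fell (up 3, 2, 3 and 4, down 1, 0, 1 and 1 with each pair omitted). The alcohol dehydrogenase family gene sodh-2 was at 0 in wild type replicates 1 and 2 and at no more than 0.193 CPM in replicates 3 and 4. It reached 5.55, 5.70, 7.54 and 11.5 CPM in SKN-1t[NNNN] (adjusted p = 0.00116).

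Transporters that export foreign compounds and conjugates also split. Of 48 ABC transporters, 6 rose (pgp-4, pgp-10, mrp-1, mrp-4, mrp-7 and mrp-8) and 5 fell (wht-1, pgp-1, pmp-1, pmp-5 and mrp-3), and 5, 2, 3 and 4 fell with each pair omitted. All 6 that rose are P-glycoproteins or multidrug-resistance-type proteins. The pmp genes encode peroxisomal transporters. The level of pgp-10 was 5.90, 2.86, 6.69 and 4.40 CPM in wild type and 59.3, 46.1, 41.8 and 30.8 CPM in SKN-1t[NNNN]. It rose 9.06-fold with no overlap (log2 fold change 3.18, SE 0.25, adjusted p = 0.00081). The multidrug-resistance-type transporter mrp-7 was at 23.5, 29.4, 38.4 and 35.1 CPM in wild type and 139.6, 149, 147 and 161 CPM in SKN-1t[NNNN], with tight groups and a rise of 4.79-fold (log2 fold change 2.26, SE 0.12, adjusted p = 0.000368). The ABCG-type transporter wht-1 was at 20.6, 21.2, 18.2 and 16.8 CPM in wild type and 4.62, 4.96, 3.74 and 5.27 CPM in SKN-1t[NNNN]. It fell 4.14-fold (log2 fold change -2.05, SE 0.14, adjusted p = 0.000647). The fall of pmp-5, from 871, 987, 999 and 1027 CPM to 476, 425, 369 and 449 CPM (log2 fold change -1.18, SE 0.11, adjusted p = 0.0013), was lost without replicate pair 2 (adjusted p = 0.0143).

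Of 9 genes for metal binding and the cadmium response, the 2 metallothioneins mtl-1 and mtl-2, small cysteine-rich proteins of the intestine, both fell, and cdr-7 rose. With each pair omitted mtl-2 kept its call and mtl-1 lost it, and cdr-7 lost it without pair 1, 2 or 3. The level of mtl-2 was 429, 356, 523 and 530.5 CPM in wild type and 121, 94.0, 141 and 169.8 CPM in SKN-1t[NNNN]. No transgenic sample reached the lowest wild type sample (log2 fold change -1.82, SE 0.09, adjusted p = 0.000296).

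Few genes of sulfur amino acid metabolism were called. Of 19 genes for cysteine and hydrogen sulfide, cysl-2 and cth-2 rose and cth-1 fell. The cysteine synthase relative cysl-2 (chromosome II, positions 14492874 to 14494451, minus strand) was at 5.75, 4.79, 2.94 and 7.71 CPM in wild type and 201, 169, 166 and 129.5 CPM in SKN-1t[NNNN]. It rose 32.5-fold, with the 4 transgenic samples within a narrow band far above wild type (log2 fold change 5.02, SE 0.31, adjusted p = 0.000489). Cystathionine gamma-lyase makes cysteine from cystathionine, and the 2 genes for it moved apart. The level of cth-2 was 499, 466, 454 and 512 CPM in wild type and 1203, 1118, 1127 and 888 CPM in SKN-1t[NNNN] (log2 fold change 1.16, SE 0.11, adjusted p = 0.00146), while cth-1 had a log2 fold change of -1.42. The call for cth-2 was lost without replicate pair 2 (adjusted p = 0.0211) and replicate pair 3 (adjusted p = 0.0101), and that for cth-1 without pair 2, 3 or 4 and in the fit without the block. Of 19 genes of the methionine cycle and phosphatidylcholine synthesis 1 was called, the S-adenosylmethionine synthetase sams-1. Its level was 1185, 1010.4, 926 and 1004 CPM in wild type and 2506, 2363, 2247 and 1936 CPM in SKN-1t[NNNN] (log2 fold change 1.13, SE 0.09, adjusted p = 0.00081), and the call was lost without replicate pair 2 (adjusted p = 0.0155).

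**Figure D2:**
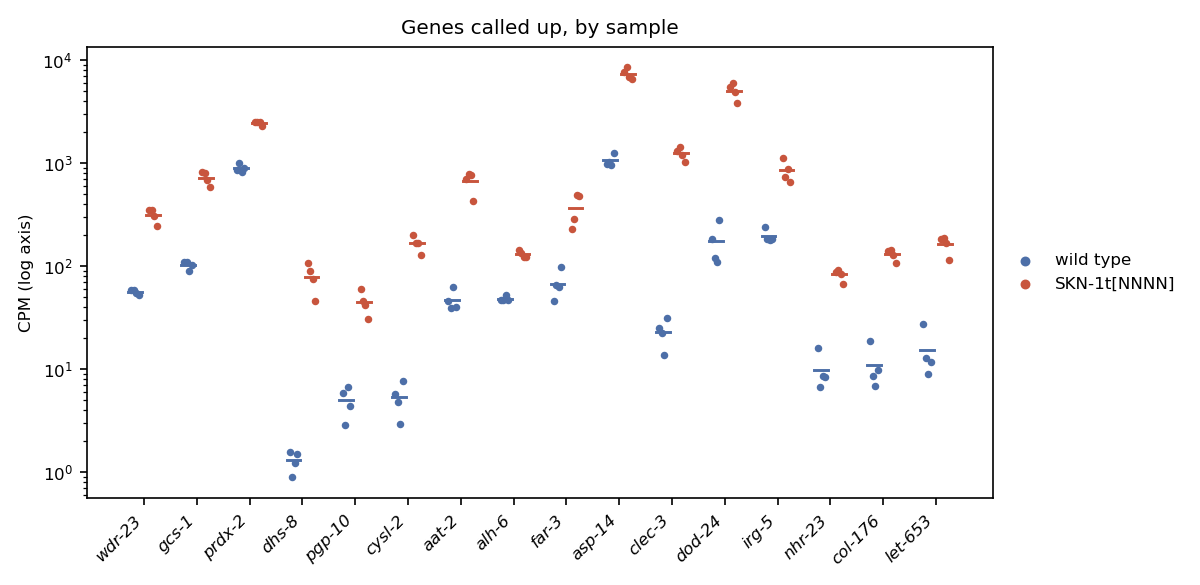
Level in CPM (log axis) of 16 genes that rose, with a point per sample in wild type and SKN-1t[NNNN], in replicate order from left to right within each group. The groups are separate for every gene shown, which was a condition for naming most genes. Replicate 4 is the lowest transgenic sample for every gene shown except far-3.

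Amino acid transporter and breakdown genes rose more often than they fell. Of 9 amino acid transporter genes of the aat family, 4 rose and none fell (up 4, 1, 3 and 3 with each pair omitted). The transporter aat-2 (WBGene00000003, chromosome V, positions 9244402 to 9246360, minus strand) was at 45.4, 38.8, 62.5 and 40.2 CPM in wild type and 708, 783, 767 and 430.1 CPM in SKN-1t[NNNN]. Replicate 4 stood below the other 3 transgenic samples but well above wild type, and aat-2 rose 14.2-fold (log2 fold change 3.83, SE 0.18, adjusted p = 0.000292). The other 3 (aat-3, aat-5 and aat-7) had log2 fold changes of 1.21 to 1.31. Of 23 genes for breakdown of tyrosine, proline, tryptophan and glycine, 5 rose and 1 fell (up 5, 1, 2 and 4, down 2, 0, 0 and 0 with each pair omitted). The mitochondrial enzyme alh-6, for the second step of proline breakdown, was at 46.9, 46.7, 52.4 and 47.2 CPM in wild type and 143, 133, 122 and 121 CPM in SKN-1t[NNNN]. It rose 2.69-fold without overlap (log2 fold change 1.43, SE 0.09, adjusted p = 0.000529). The enzyme of the first proline step, prdh-1, was also called (log2 fold change 1.12). The tyrosine enzyme hpd-1 was at 656, 619, 479 and 592 CPM in wild type and 1513, 1809, 1726 and 1105 CPM in SKN-1t[NNNN] (log2 fold change 1.38, SE 0.17, adjusted p = 0.00262), a call lost without replicate pair 2 (adjusted p = 0.0249) and replicate pair 3 (adjusted p = 0.0102). The tryptophan enzymes kmo-1 and haao-1 had log2 fold changes of 1.43 and 1.04.

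Osmolyte genes fell more often than they rose. Of 17 genes for glycerol and trehalose, 1 rose and 5 fell, with a median of -0.41 (up 3, 0, 1 and 1, down 5, 1, 2 and 2 with each pair omitted). Glycerol-3-phosphate dehydrogenase gpdh-1, which makes glycerol and is known for induction by high salt, was at 56.8, 61.8, 56.9 and 60.4 CPM in wild type and 11.4, 7.48, 6.41 and 7.31 CPM in SKN-1t[NNNN]. The groups were widely separated, and gpdh-1 fell 7.40-fold (log2 fold change -2.89, SE 0.17, adjusted p = 0.00043). The inositol transporter hmit-1.1, another gene known for the response to high salt, was at 242, 312, 337 and 269.7 CPM in wild type and 109.7, 78.5, 58.7 and 57.04 CPM in SKN-1t[NNNN] (log2 fold change -1.98, SE 0.24, adjusted p = 0.00247). This call was lost without replicate pair 2 (adjusted p = 0.0174), replicate pair 3 (adjusted p = 0.012) and replicate pair 4 (adjusted p = 0.0151). Trehalose-6-phosphate synthase tps-1 went from 17.7, 15.9, 18.5 and 13.8 CPM to 42.6, 43.6, 35.4 and 30.5 CPM (log2 fold change 1.201, SE 0.11, adjusted p = 0.0012). The trehalase tre-2, which splits trehalose, went from 92.3, 129.6, 157 and 119.2 CPM to 42.5, 47.9, 45.3 and 49.05 CPM (log2 fold change -1.41, SE 0.13, adjusted p = 0.00115). Both calls were lost without replicate pair 2, for tps-1 at adjusted p = 0.0132 and for tre-2 at adjusted p = 0.0102. Of 31 genes of glycolysis, gluconeogenesis, the glyoxylate cycle and the pentose phosphate path, gspd-1 was called higher and hxk-1 and icl-1 lower, with 0, 0, 0 and 1 higher and 1, 0, 0 and 1 lower when each pair was omitted, and the median was -0.09.

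Desaturase and beta-oxidation genes fell more often than they rose. Of 16 desaturases and elongases, 3 fell (fat-5, fat-6 and elo-9) and none rose, with a median log2 fold change of -0.52 (down 2, 2, 3 and 2 with each pair omitted). The stearoyl-CoA desaturase fat-6, which makes oleic acid, was at 1112, 1324, 919 and 1121 CPM in wild type and 422, 464, 401 and 402 CPM in SKN-1t[NNNN]. All transgenic samples lay below all wild type samples, and fat-6 fell 2.63-fold (log2 fold change -1.396, SE 0.09, adjusted p = 0.000521). The elongase elo-9 fell 2.83-fold (log2 fold change -1.4996, SE 0.10, adjusted p = 0.000603). Of 58 genes for fatty acid activation and beta-oxidation, 5 fell and 1 rose (acs-3), with 5 lower when any pair was omitted and 2, 0, 0 and 0 higher. Of the falling genes 4 are known from the peroxisomal shortening of ascaroside side chains, the path that makes the worm's pheromones. These were acox-3, acox-1.6, dhs-28 and daf-22, with log2 fold changes of -1.53 to -1.09, and they were grouped after their values were seen. The acyl-CoA oxidase acox-3 (chromosome IV, positions 6245358 to 6248492, minus strand) was at 194, 201, 203 and 206 CPM in wild type and 68.9, 66.1, 78.2 and 66.0 CPM in SKN-1t[NNNN]. Both groups were tight (log2 fold change -1.53, SE 0.08, adjusted p = 0.000375). A further acyl-CoA oxidase, acox-1.6, was at 118.9, 141, 143 and 128 CPM in wild type and 51.98, 48.4, 50.5 and 49.1 CPM in SKN-1t[NNNN] (log2 fold change -1.404, SE 0.09, adjusted p = 0.000521). The median over the 58 genes was -0.52.

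Lipases and lipid carriers went both ways. Of 18 lipases, lips-5, lips-10 and lipl-6 rose, and lipl-1, lipl-2, lipl-5 and lips-7 fell (up 3, 1, 1 and 2, down 4, 1, 2 and 2 with each pair omitted). The level of lips-10 was 41.9, 40.4, 64.9 and 50.8 CPM in wild type and 233, 228, 238 and 179 CPM in SKN-1t[NNNN] (log2 fold change 2.17, SE 0.16, adjusted p = 0.000707). Of 16 lipid-binding proteins, far-3, far-5 and lbp-8 rose, and lbp-5 and lbp-7 fell (up 2, 1, 3 and 1, down 2, 0, 1 and 2 with each pair omitted). The fatty acid and retinol binding protein far-3 was at 45.5, 64.9, 62.03 and 98.4 CPM in wild type and 229.1, 287, 486 and 481 CPM in SKN-1t[NNNN]. The lowest transgenic sample was more than 2-fold above the highest wild type sample (log2 fold change 2.43, SE 0.16, adjusted p = 0.000521). The lipid-binding protein lbp-5 went from 112, 179, 203 and 149 CPM to 47.4, 46.05, 42.8 and 35.1 CPM (log2 fold change -1.89, SE 0.18, adjusted p = 0.00131), a call lost without replicate pair 2 (adjusted p = 0.0114).

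All 6 vitellogenins, the yolk proteins that the adult intestine makes for the oocytes, fell, with a median log2 fold change of -8.25. The level of vit-6 was 2501, 6107, 12049 and 6513 CPM in wild type and 68.7, 85.3, 78.9 and 173 CPM in SKN-1t[NNNN]. The transgenic samples were all below wild type, but the wild type samples themselves differed widely, replicate 1 being the lowest and replicate 3 the highest (log2 fold change -5.95, SE 0.44, adjusted p = 0.00074). The level of vit-2 (chromosome X, positions 5101042 to 5106169, plus strand) was 941, 3093, 6424 and 3361 CPM in wild type and 8.57, 9.34, 9.60 and 25.4 CPM in SKN-1t[NNNN]. Replicate 4 was the highest of the transgenic samples (log2 fold change -7.88, SE 0.59, adjusted p = 0.000746). The fall of vit-1 (log2 fold change -4.49, SE 0.48, adjusted p = 0.00178) was lost without replicate pair 2 (adjusted p = 0.0129) and replicate pair 4 (adjusted p = 0.0109), and that of vit-3 (log2 fold change -8.62, SE 0.90, adjusted p = 0.00168) without replicate pair 3 (adjusted p = 0.0114). The genes vit-3, vit-4 and vit-5 are near copies, so reads may be shared among them. Yolk genes switch on at the end of the L4 stage, the time at which the adult cuticle genes above also rise, and whether a difference in stage plays a part here was not tested.

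Lysosomal and digestive proteases fell more often than they rose. Of 20 cathepsins and aspartyl proteases, 2 rose (asp-14 and tag-196) and 9 fell, with a median of -0.81 beside -0.90 for the intestine markers (up 2, 1, 2 and 2, down 8, 3, 6 and 7 with each pair omitted). The aspartyl protease asp-14 (WBGene00019619, chromosome X, positions 6444185 to 6446664, minus strand) was at 990.3, 1037, 967 and 1260.5 CPM in wild type and 7695, 8503, 6829.6 and 6570.3 CPM in SKN-1t[NNNN]. It rose 6.96-fold without overlap (log2 fold change 2.80, SE 0.13, adjusted p = 0.000292). The cathepsin B-like protease cpr-6 was at 2922, 3297, 2315 and 2877 CPM in wild type and 595, 796, 783 and 1029 CPM in SKN-1t[NNNN]. It fell 3.60-fold without overlap (log2 fold change -1.85, SE 0.16, adjusted p = 0.00106). The related cpr-1, a marker of the intestine, was at 332, 427, 257 and 244 CPM in wild type and 22.9, 36.05, 14.9 and 54.2 CPM in SKN-1t[NNNN] (log2 fold change -3.44, SE 0.35, adjusted p = 0.00162), and its call was lost without replicate pair 2 (adjusted p = 0.0106). Of 20 subunits of the vacuolar ATPase, which acidifies lysosomes, vha-5 and vha-7 rose and none fell. Both are among the subunits known from the hypodermis, and they were not called without pair 2 or pair 3.

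Housekeeping machinery gave few calls or none. Among 33 proteasome subunits edgeR called none, 7 were lower and none higher at an unadjusted p below 0.05, and DESeq2 called none. None of 81 cytosolic ribosomal proteins was called by edgeR or DESeq2, although 19 were higher at an unadjusted p below 0.05. Among 38 genes of the respiratory chain and ATP synthase edgeR called none, 1 was higher and 10 lower at an unadjusted p below 0.05, and DESeq2 called 1 higher. Among 23 cytosolic chaperones and heat shock genes edgeR called none, 11 were higher and 2 lower at an unadjusted p below 0.05, and DESeq2 called 1 lower. Among 28 autophagy genes edgeR and DESeq2 called none, with 2 higher and 8 lower at an unadjusted p below 0.05. Among 54 ubiquitin enzymes edgeR and DESeq2 called none, with 3 higher and 10 lower at that p. Of 27 genes for endoplasmic reticulum chaperones and the unfolded protein response dnj-27 was called higher, and of 17 genes of the mitochondrial stress response dve-1 was called lower, each in no more than 1 of the 4 fits with a pair omitted. Of 182 F-box and BTB proteins, which bring substrates to ubiquitin ligases, 8 rose and 7 fell (up 5, 0, 0 and 2, down 7, 1, 3 and 6 with each pair omitted). Without the block 13 of the 182 fell.

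Secreted defence proteins were changed in both directions. Of 102 C-type lectins, 13 rose and 20 fell, with a median log2 fold change of -0.47 (up 10, 9, 9 and 10, down 21, 8, 8 and 17 with each pair omitted). The largest rise was that of clec-68 (WBGene00018970, chromosome IV, positions 3926417 to 3929105, plus strand), at 0.154, 0.242, 0.0386 and 0.0698 CPM in wild type and 45.05, 49.8, 60.1 and 53.0 CPM in SKN-1t[NNNN]. It was near 0 in wild type and far above that in every transgenic sample (log2 fold change 8.66, SE 0.33, adjusted p = 0.00015). The level of clec-3 was 25.1, 22.3, 13.6 and 31.1 CPM in wild type and 1323, 1452, 1197 and 1021 CPM in SKN-1t[NNNN] (log2 fold change 5.81, SE 0.28, adjusted p = 0.000296). The largest fall was that of clec-229, from 17.5, 26.3, 17.6 and 15.8 CPM to 0.213, 0.0388, 0.754 and 1.198 CPM (log2 fold change -5.26, SE 0.72, adjusted p = 0.00369). Its call was lost without replicate pair 3 (adjusted p = 0.0174).

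Lysozymes, enzymes that cut bacterial cell walls, were lower: 7 of 12 fell and none rose, with a median of -1.55 beside -0.90 for the intestine markers (down 8, 5, 6 and 6 with each pair omitted). The invertebrate-type lysozyme ilys-5 was at 2147, 2706, 2165 and 2467 CPM in wild type and 452, 557, 372 and 472 CPM in SKN-1t[NNNN]. Every transgenic sample was below every wild type sample, and ilys-5 fell 5.15-fold (log2 fold change -2.36, SE 0.09, adjusted p = 0.000146). The level of lys-5 was 25.4, 28.1, 26.9 and 27.5 CPM in wild type and 5.72, 8.22, 4.53 and 5.91 CPM in SKN-1t[NNNN] (log2 fold change -2.17, SE 0.15, adjusted p = 0.000639). Saposin-like proteins, which act on bacterial membranes, had 3 members that rose (spp-9, spp-12 and spp-19) and 3 that fell (spp-1, spp-4 and spp-18) of 18 (up 2, 2, 2 and 3 with each pair omitted). The level of spp-18 was 46.7, 38.9, 37.4 and 45.7 CPM in wild type and 8.46, 8.33, 7.41 and 10.4 CPM in SKN-1t[NNNN] (log2 fold change -2.29, SE 0.10, adjusted p = 0.000206). The level of spp-12 was 0.116, 0.242, 0.155 and 0.384 CPM in wild type and 7.68, 12.9, 12.14 and 15.1 CPM in SKN-1t[NNNN] (log2 fold change 5.74, SE 0.24, adjusted p = 0.000187).

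Of 33 antimicrobial peptide genes, abf-5, abf-6 and fip-5 rose, and thn-1, thn-2, cnc-4, nlp-30, nlp-33 and nlp-34 fell (up 3, 0, 0 and 1, down 3, 3, 2 and 2 with each pair omitted). The thaumatin-like gene thn-2 was at 14.1, 22.2, 14.6 and 13.2 CPM in wild type and 0.711, 0.814, 0.583 and 2.04 CPM in SKN-1t[NNNN] (log2 fold change -4.05, SE 0.40, adjusted p = 0.00148). The falling nlp and cnc genes are known from the epidermis and its response to fungi. Of 25 infection-response genes, irg-3, irg-5 and pals-1 rose, and pals-9, pals-16 and pals-19 fell (up 2, 2, 2 and 2, down 3, 0, 0 and 0 with each pair omitted). The level of irg-5, a gene of the intestinal response to bacteria, was 238, 182, 180.0 and 185 CPM in wild type and 1115, 741, 884 and 663 CPM in SKN-1t[NNNN]. All transgenic samples were above wild type, over a wider range (log2 fold change 2.097, SE 0.11, adjusted p = 0.000308). The level of irg-3 was 49.7, 48.3, 56.2 and 54.9 CPM in wild type and 148, 179.9, 296 and 178 CPM in SKN-1t[NNNN] (log2 fold change 1.89, SE 0.15, adjusted p = 0.00089).

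Genes named for acting downstream of DAF-16, the insulin pathway's FOXO factor, had 4 of 19 that rose (dod-17, dod-24, dct-17 and dct-19) and 3 that fell (dod-23, dct-11 and dct-16), with 4, 3, 3 and 3 higher and 4, 2, 2 and 3 lower when each pair was omitted. The names of the list record how the genes were found and not what they encode. The level of dod-24 was 183, 120.1, 110.1 and 283 CPM in wild type and 5526, 6019, 4863 and 3828 CPM in SKN-1t[NNNN] (log2 fold change 4.96, SE 0.37, adjusted p = 0.000754). The level of dod-17 (chromosome IV, positions 12976303 to 12978343, plus strand) was 72.3, 73.9, 65.2 and 75.1 CPM in wild type and 1137, 1211, 1034 and 796 CPM in SKN-1t[NNNN], with no overlap and a rise of 14.4-fold (log2 fold change 3.85, SE 0.14, adjusted p = 0.000146). The level of dct-16 was 1681, 1987, 1933 and 1762 CPM in wild type and 588, 642, 531 and 521 CPM in SKN-1t[NNNN] (log2 fold change -1.69, SE 0.09, adjusted p = 0.000358). Of 16 genes of the p38 MAP kinase path, which drives intestinal immunity, mkk-4 was called higher and T24B8.5 and C17H12.8 lower, with 0, 0, 0 and 0 higher and 1, 0, 1 and 0 lower when each pair was omitted, and none was called without the block.

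**Figure D3:**
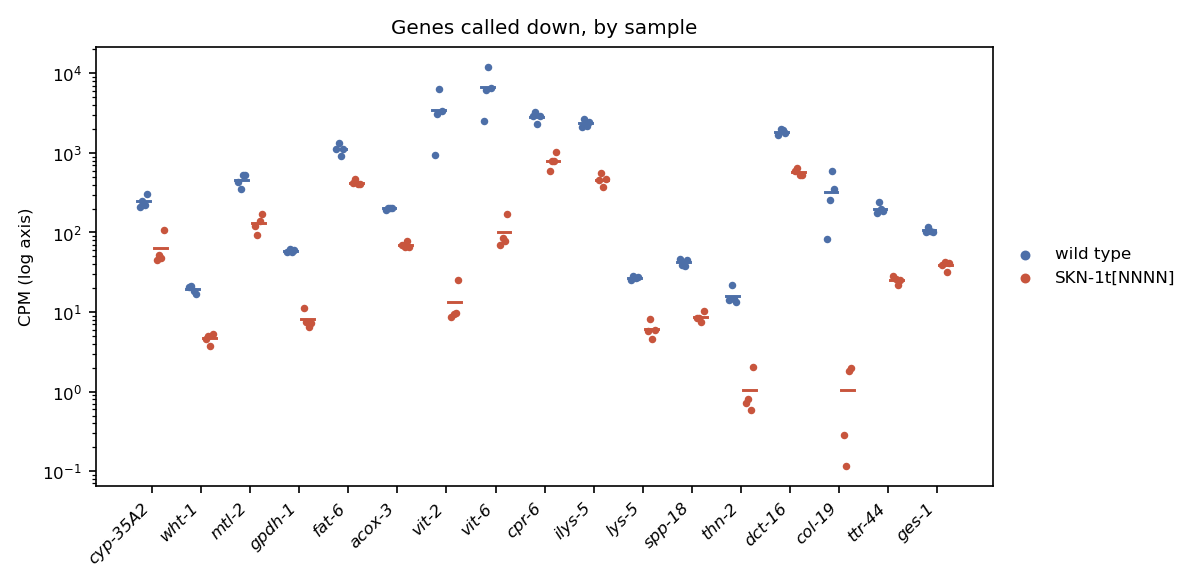
Level in CPM (log axis) of 17 genes that fell, with a point per sample, in replicate order from left to right within each group. The groups are separate for every gene shown, which was a condition for naming most genes. The wild type samples are spread widest for vit-2 and col-19.

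The col collagens had more calls than any other gene family by name. Of 118 collagen genes named col, 10 rose and 47 fell, with a median log2 fold change of -1.68 (up 12, 6, 10 and 9, down 52, 26, 25 and 26 with each pair omitted). The adult collagen col-19 was at 83.8, 258, 601 and 354 CPM in wild type and 0.284, 0.116, 1.82 and 1.997 CPM in SKN-1t[NNNN]. The transgenic samples were lower by orders of magnitude, and wild type replicate 1 was the lowest of its group (log2 fold change -8.41, SE 0.51, adjusted p = 0.000477). The collagen col-81 went from 86.9, 354, 1169 and 615 CPM to 0.569, 0.775, 3.29 and 2.76 CPM (log2 fold change -8.13, SE 0.30, adjusted p = 0.000146). In the other direction col-98 was at 90.2, 39.5, 33.9 and 45.3 CPM in wild type and 924, 759, 627 and 357 CPM in SKN-1t[NNNN] (log2 fold change 3.70, SE 0.27, adjusted p = 0.000701). The collagen col-176 was at 18.8, 8.495, 6.80 and 9.77 CPM in wild type and 139.9, 143, 129.5 and 108 CPM in SKN-1t[NNNN] (log2 fold change 3.66, SE 0.26, adjusted p = 0.000639). In both, wild type replicate 1 was the highest of its group. Collagens with very similar sequences may share reads.

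Of 19 named body-shape and furrow collagens, 7 rose and none fell (up 8, 1, 5 and 1 with each pair omitted). Of the 7, 6 are the collagens of the annular furrows, dpy-2, dpy-3, dpy-7, dpy-8, dpy-9 and dpy-10, and their log2 fold changes lay between 2.87 and 3.01. These genes are known to be made together early in each moult cycle. The level of dpy-10 was 45.2, 24.04, 14.3 and 27.2 CPM in wild type and 175, 229.2, 224 and 199.99 CPM in SKN-1t[NNNN] (log2 fold change 3.01, SE 0.34, adjusted p = 0.00203), and its call was lost without replicate pair 2 (adjusted p = 0.0139) and replicate pair 4 (adjusted p = 0.013). The remaining gene, dpy-17, was at 0.424, 0.483, 0.580 and 0.419 CPM in wild type and 5.08, 6.51, 5.31 and 7.19 CPM in SKN-1t[NNNN] (log2 fold change 3.64, SE 0.24, adjusted p = 0.000521). The body-shape collagens dpy-4, dpy-5 and dpy-13, of which dpy-13 is known to peak later in the cycle, had log2 fold changes of -1.27 to -1.24 and adjusted p-values of 0.0497 to 0.0620, and were not called.

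Of 37 cuticlins and zona pellucida proteins, 10 rose and 3 fell (up 9, 3, 4 and 6, down 3, 2, 1 and 2 with each pair omitted), and 6 fell without the block. The fibrillin relative fbn-1, needed at the moult, was at 74.0, 26.4, 20.9 and 25.2 CPM in wild type and 471, 469, 415 and 281 CPM in SKN-1t[NNNN] (log2 fold change 3.65, SE 0.31, adjusted p = 0.00098). The apical matrix protein let-653 was at 27.7, 12.7, 8.89 and 11.8 CPM in wild type and 182, 186, 166 and 115 CPM in SKN-1t[NNNN] (log2 fold change 3.52, SE 0.27, adjusted p = 0.000801). Its relative noah-1 was at 314, 139, 91.9 and 143 CPM in wild type and 1142, 1428, 1325 and 1108 CPM in SKN-1t[NNNN] (log2 fold change 3.02, SE 0.34, adjusted p = 0.00212), a call lost without replicate pair 2 (adjusted p = 0.0143) and replicate pair 4 (adjusted p = 0.0136). The nuclear receptor nhr-23, which sets off each moult, was at 15.9, 6.68, 8.62 and 8.37 CPM in wild type and 87.9, 92.6, 84.2 and 67.2 CPM in SKN-1t[NNNN]. All 4 transgenic samples lay above wild type, and wild type replicate 1 was again the highest of its group (log2 fold change 3.13, SE 0.23, adjusted p = 0.000701).

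Of 60 hedgehog- and patched-related genes, 10 rose and 11 fell (up 15, 3, 3 and 5, down 15, 5, 4 and 5 with each pair omitted). The warthog gene wrt-10 was at 84.7, 42.5, 26.8 and 43.2 CPM in wild type and 419.8, 492, 447 and 329 CPM in SKN-1t[NNNN] (log2 fold change 3.21, SE 0.31, adjusted p = 0.00135). The ground-like gene grl-16 was at 1687, 2150.2, 1347 and 1537 CPM in wild type and 197, 114, 250.3 and 318 CPM in SKN-1t[NNNN] (log2 fold change -2.996, SE 0.36, adjusted p = 0.00249), a call lost without replicate pair 3 (adjusted p = 0.0112). Of 27 astacin proteases, 2 rose and 6 fell (up 3, 1, 1 and 1, down 9, 4, 3 and 4 with each pair omitted). Of 56 glutamine-rich proteins of the abu and pqn families 3 fell and none rose, with 1, 0, 0 and 0 higher and 8, 1, 0 and 3 lower when each pair was omitted. All of these groups include genes that cycle with the moult, and the values of the stage lists above stand beside their counts. Whether a difference in stage plays a part in them was not tested.

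**Figure D4:**
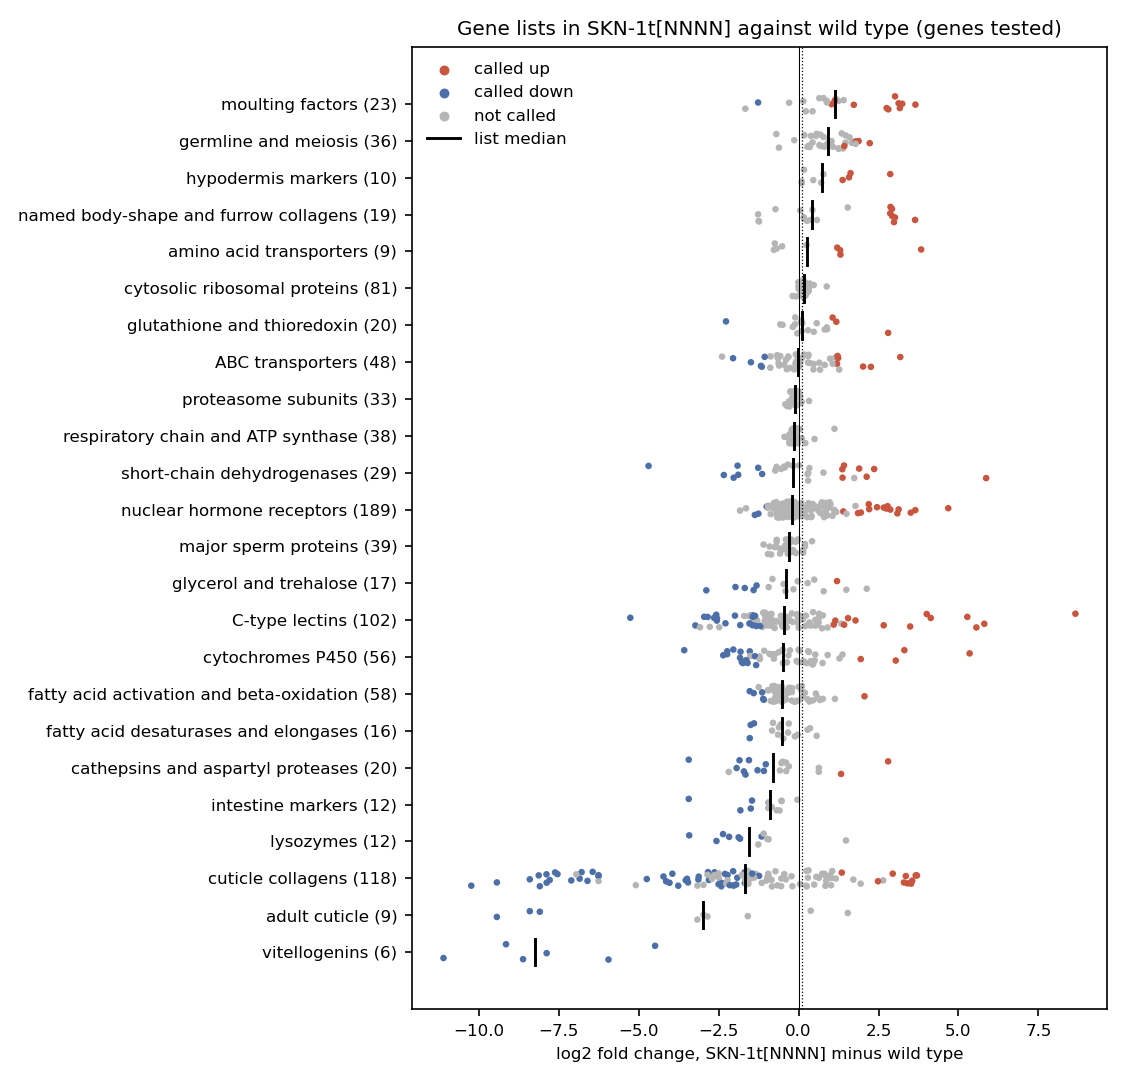
Log2 fold change (SKN-1t[NNNN] over wild type) of every gene tested in 24 lists, with a point per gene, called genes in color the median of each list as a bar and the median of all genes (0.11) as a dotted line. Lysozymes (median -1.55) and vitellogenins (median -8.25) have no called gene above 0, and the aat transporters have no called gene below it.

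Of 189 nuclear hormone receptors, 15 rose and 3 fell, with a median of -0.21 (up 15, 4, 7 and 13 with each pair omitted). The largest rise was that of nhr-265, at 0.694, 0.242, 0.155 and 0.209 CPM in wild type and 11.1, 8.33, 8.71 and 4.03 CPM in SKN-1t[NNNN] (log2 fold change 4.68, SE 0.35, adjusted p = 0.000745). The falling receptors were nhr-63, nhr-76 and nhr-170 (down 3, 1, 1 and 2 with each pair omitted). The level of nhr-76 was 34.3, 48.3, 38.03 and 33.2 CPM in wild type and 15.2, 17.9, 16.15 and 14.5 CPM in SKN-1t[NNNN] (log2 fold change -1.26, SE 0.09, adjusted p = 0.000647). Of 24 bZIP factors other than skn-1, atf-2, atf-8 and maf-1 rose and zip-3 fell (up 3, 0, 2 and 0 with each pair omitted). The level of atf-8 was 9.68, 5.56, 3.21 and 4.43 CPM in wild type and 40.5, 54.8, 47.6 and 30.4 CPM in SKN-1t[NNNN] (log2 fold change 2.99, SE 0.31, adjusted p = 0.00165), and the call was lost without replicate pair 2 (adjusted p = 0.0118) and replicate pair 4 (adjusted p = 0.0104). The fall of zip-3 from 60.5, 81.9, 82.4 and 74.8 CPM to 31.9, 31.6, 27.1 and 30.7 CPM (log2 fold change -1.296, SE 0.12, adjusted p = 0.00134) was lost without replicate pair 2 (adjusted p = 0.0118).

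Of 14 insulin-like peptides, ins-27 and ins-35 rose and ins-12 fell, with 2, 0, 1 and 1 higher and 0 lower when each pair was omitted. Of 91 genes listed as neuropeptides by their flp or nlp name, nlp-16 rose and 5 fell (nlp-25, nlp-30, nlp-33, nlp-34 and nlp-51), with 0 called higher and 3, 2, 0 and 1 lower when each pair was omitted. Of the falling genes nlp-30, nlp-33 and nlp-34 were already counted among the antimicrobial peptide genes above. Of 70 ligand-gated channels, 3 rose and 1 fell (up 1, 0, 0 and 2, down 1, 0, 0 and 0 with each pair omitted). Of the 78 chemoreceptor genes that passed the low-count filter 8 rose and 2 fell (up 5, 1, 3 and 3, down 3, 1, 2 and 2 with each pair omitted), with 6 lower without the block. Of 65 solute carriers and related transporters, 5 rose (swt-2, nac-1, snf-11, slc-25A29 and aqp-7) and 6 fell (up 4, 2, 4 and 4, down 6, 1, 1 and 3 with each pair omitted). The GABA transporter snf-11 was at 18.7, 14.9, 16.08 and 15.6 CPM in wild type and 61.4, 56.2, 60.04 and 51.4 CPM in SKN-1t[NNNN]. It rose 3.51-fold with tight groups (log2 fold change 1.81, SE 0.08, adjusted p = 0.000275).

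The count of germline genes depended on the fit. Of 36 genes of the germline and meiosis, 33 had a log2 fold change above 0, with a median of 0.91, and 4 were called higher (syp-4, glp-1, htp-3 and fog-3). With each pair omitted 3, 0, 4 and 0 were called, and without the block 2. DESeq2 called 14, the fit of all 16 samples 13, and the 1.5-fold limit at an adjusted p of 0.05 gave 21. Of 39 major sperm proteins and related genes edgeR called none, 2 were lower at an unadjusted p below 0.05, and DESeq2 called none. Their mean log2 level against the wild type mean was -1.002, -0.66, 0.93 and 0.74 in wild type and -1.65, -1.48, -0.0028 and 1.75 in SKN-1t[NNNN], so that the replicates differed more than the groups. Of 32 oocyte and eggshell genes, lin-41 was called higher and mbk-2 lower, with 1, 0, 1 and 0 higher and 1, 0, 1 and 2 lower when each pair was omitted. Of 29 Argonautes and silencing factors ego-1 was called higher, and the call was lost without pair 1, 2 or 4 and without the block.

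A pass over all 117 gene-name families with at least 10 members tested found 6 with at least 5 calls and at least 25% of members in 1 direction, and 39 with no call. Beyond gst and ugt these were col (39.8% lower), cyp (25% lower), dpy (41.7% higher) and ttr (26.1% lower). Without the block 13 of 56 cyp genes and 10 of 46 ttr genes fell, so both families were then under the 25% limit. Of 24 dpy genes 10 rose, with 2 called higher in replicates 1 and 2 only and 10 in replicates 3 and 4 only. The ttr genes encode transthyretin-like secreted proteins, and of 46 tested 4 rose and 12 fell (up 3, 0, 1 and 3, down 11, 3, 5 and 6 with each pair omitted). The level of ttr-44 was 177, 242, 195 and 187 CPM in wild type and 28.2, 26.3, 22.01 and 25.5 CPM in SKN-1t[NNNN] (log2 fold change -2.97, SE 0.12, adjusted p = 0.00019). The level of ttr-18 was 84.4, 70.7, 60.3 and 66.7 CPM in wild type and 236, 219, 180.1 and 136 CPM in SKN-1t[NNNN] (log2 fold change 1.43, SE 0.12, adjusted p = 0.00104), and this call was lost without replicate pair 2 (adjusted p = 0.0116).

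Of 6706 genes tested that have a sequence name only, 420 rose and 374 fell (up 376, 101, 178 and 254, down 369, 124, 146 and 234 with each pair omitted). The level of W06H8.2 (chromosome V, positions 6206755 to 6208561, plus strand) was 0.849, 0.886, 0.966 and 1.26 CPM in wild type and 277, 239, 226 and 157 CPM in SKN-1t[NNNN] (log2 fold change 7.78, SE 0.27, adjusted p = 0.000113). The level of F56D5.3 (chromosome IV, positions 9397578 to 9401297, plus strand) was 1.505, 1.41, 1.86 and 1.92 CPM in wild type and 375, 324, 313 and 237 CPM in SKN-1t[NNNN] (log2 fold change 7.52, SE 0.22, adjusted p = 6.82e-05). Both were near 1 CPM in wild type and more than 100-fold higher in every transgenic sample. The gene BE0003N10.6 (chromosome III, positions 1056230 to 1060061, minus strand) was at 270.2, 297, 103.7 and 229.9 CPM in wild type and 0.391, 1.90, 2.47 and 3.44 CPM in SKN-1t[NNNN], a fall to near absence (log2 fold change -6.80, SE 0.68, adjusted p = 0.00148). Its call was lost without replicate pair 2 (adjusted p = 0.0103). Its mean with SD was 0.845 ± 0.287 CPM in SKN-1t[DNDD] and 17.5 ± 32.7 CPM in SKN-1t[NDNN], so the fall was not limited to SKN-1t[NNNN]. The SKN-1t[NDNN] samples differed widely, with an SD above their mean.

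To see where SKN-1t[NNNN] differed from the edited forms, it was tested directly against each in a fit of all 16 samples (14850 genes). Against SKN-1t[DNDD], with 3 aspartates, 203 genes were higher in SKN-1t[NNNN] (1.37%) and 925 lower (6.23%). Against SKN-1t[NDNN], with 1 aspartate, 2 were higher (0.0135%) and 62 lower (0.418%). The first of these comparisons depended on the fit: without the block 109 genes were higher and 279 lower, and with each replicate omitted 87 to 171 were higher and 263 to 1279 lower. Against SKN-1t[NDNN] 0 to 1 were higher and 30 to 53 lower with each replicate omitted. A set of 84 of the genes named above was followed gene by gene, and most genes named only as members of a list were left out. Most of the 84 were chosen for large changes against wild type in these same SKN-1t[NNNN] samples. Such a choice favours a larger change in SKN-1t[NNNN] than in another strain, so the share that differed is a description only. Of the 84, 27 differed from SKN-1t[DNDD], 16 being higher in SKN-1t[NNNN] and 11 lower. Of these, 7 kept the call in all 6 alternative fits (no block, the 8 samples alone, and each replicate omitted): wdr-23, gcs-1, aat-2, clec-68, dod-17 and F56D5.3 were higher, and spp-18 lower.

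Mean levels over 4 samples are given with their SD. For clec-68 the mean was 51.8 ± 6.28 CPM with the unedited sequence, 30.3 ± 2.91 CPM with 1 substitution, 5.78 ± 2.48 CPM with 3 substitutions and 0.136 ± 0.0983 CPM in wild type (edgeR, unedited against 3 substitutions: log2 difference 3.22, SE 0.24, adjusted p = 1.99e-06). For wdr-23 the means in the same order were 313 ± 56.1, 226 ± 28.7, 136 ± 26.3 and 60.5 ± 2.84 CPM (log2 difference 1.21, SE 0.11, adjusted p = 1.39e-05). All 3 transgenic strains were thus above wild type in wdr-23, and SKN-1t[DNDD] was the lowest of them. The means of gcs-1 in the 3 transgenic strains were 722 ± 120.0, 498 ± 97.9 and 265.04 ± 66.9 CPM (log2 difference 1.46, SE 0.11, adjusted p = 2.71e-06). For aat-2 they were 673 ± 176.01, 458 ± 203 and 203 ± 93.3 CPM (log2 difference 1.77, SE 0.25, adjusted p = 0.000505). For dod-17 they were 1045 ± 201, 831 ± 183 and 324 ± 135 CPM (log2 difference 1.74, SE 0.18, adjusted p = 3.54e-05). The mean of each of these genes was lowest in SKN-1t[DNDD] among the transgenic strains. In the direct edgeR test none of them was called against the form with 1 substitution, so a stepwise order was not established. For clec-68 that log2 difference was 0.79 (SE 0.21, adjusted p = 0.107) and for aat-2 0.61 (SE 0.25, adjusted p = 0.267). The saposin-like gene spp-18 had the opposite order, with means of 8.61 ± 1.06, 16.99 ± 4.61 and 32.8 ± 3.76 CPM against 45.6 ± 5.16 CPM in wild type (log2 difference -1.93, SE 0.14, adjusted p = 1.47e-06). Its difference from the form with 1 substitution was below the 2-fold limit (log2 difference -0.96, SE 0.14, adjusted p = 0.00211).

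The protease asp-14 was at 7392 ± 1001 CPM with the unedited sequence and 3586 ± 821 CPM with 3 substitutions (log2 difference 1.05, SE 0.13, adjusted p = 0.000203), a call kept in 5 of the 6 alternatives. A further 15 of the 84 genes differed from SKN-1t[DNDD] at an adjusted p below 0.01 but by less than 2-fold, among them gss-1 (log2 difference 0.84, adjusted p = 0.00025), cth-2 (0.75, adjusted p = 0.000361), fat-6 (-0.69, adjusted p = 0.0052) and cpr-6 (-0.83, adjusted p = 0.00562). For the remaining 42 the adjusted p was not below 0.01. Of these, the oxidase acox-3 was at 69.7 ± 6.60 CPM with the unedited sequence and 76.9 ± 15.3 CPM with 3 substitutions (log2 difference -0.13, SE 0.11, adjusted p = 0.395). The dehydrogenase alh-6 was at 129.8 ± 12.5 and 144 ± 25.5 CPM (log2 difference -0.14, SE 0.11, adjusted p = 0.342). A p that misses the threshold does not show that the forms act alike on these genes. The differences of vit-2, grl-16 and clec-229 kept the call in none of the 6 alternatives, and the 29 col genes called lower in SKN-1t[NNNN] than in SKN-1t[DNDD] were 0 without the block. In the same comparison 32 of 42 major sperm proteins and related genes and 21 of 33 oocyte and eggshell genes were called lower. Both counts were also 0 without the block, and neither list had a gene called higher in these 2 fits.

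**Figure D5:**
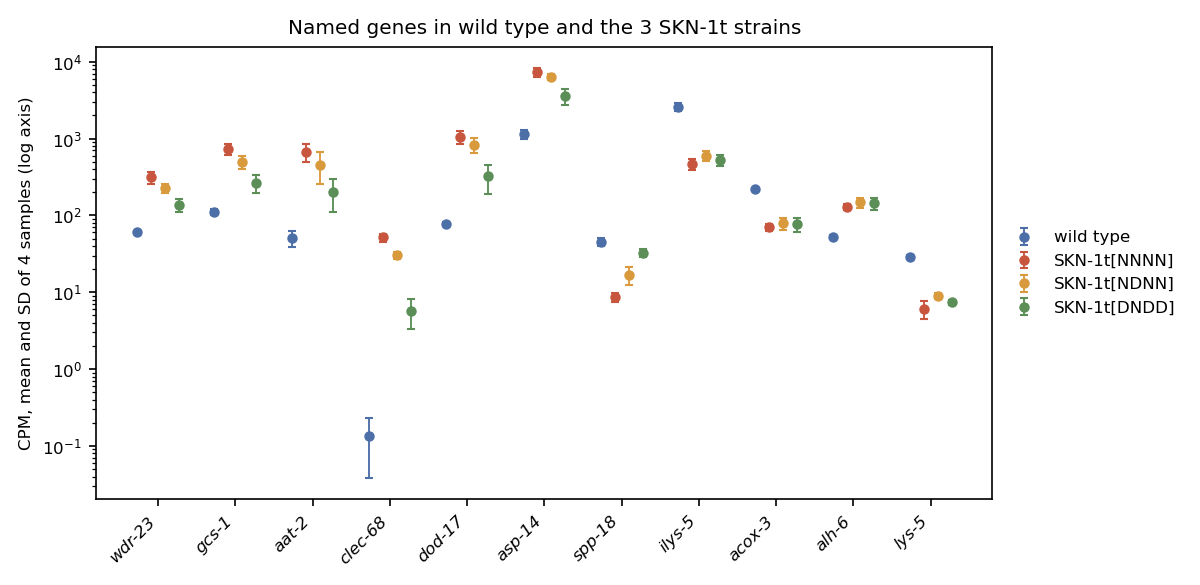
Mean level in CPM with SD (log axis, n = 4) of 11 genes in wild type and in the strains with the unedited sequence, 1 substitution and 3 substitutions. For wdr-23, gcs-1, aat-2, clec-68 and dod-17 the SKN-1t[DNDD] mean lies between wild type and SKN-1t[NNNN], while the means of acox-3, alh-6 and lys-5 lie close together in the 3 transgenic strains.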

How the data were processed

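Whole-animal L4 RNA was sequenced in 16 libraries (TruSeq Stranded mRNA, polyA-selected, paired-end, pooled for 1 run). The authors grew synchronized animals to L4, checked reads with FastQC 0.11.9 and aligned them with STAR 2.7.7a in its 2-pass mode to WBcel235 with the Ensembl gene set. The deposited table holds raw counts of reads per gene for 19122 genes, and a gene length column deposited by the authors was not used for testing. How multiply mapped reads were handled and whether strand was used in counting are not given in the sources used here. Of the gene identifiers 19066 were found in the annotation, from which positions were taken.

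Counts of the 8 samples were analysed with edgeR 4.0.16 (R 4.3.3): genes were kept by filterByExpr (minimum count 10, minimum total 15), scaled by TMM and fitted with glmQLFit (legacy quasi-dispersions), with strain and replicate number as terms. Genes were called at an absolute log2 fold change over 1 and a Benjamini-Hochberg adjusted p below 0.01, over all genes tested. Direct comparisons between transgenic strains used all 16 samples in the same model. DESeq2 1.42.0, other scalings, other filters and cutoffs, the fit without the block and omission of each replicate were alternatives. With total counts of 23806929 to 28694871 per sample, counting error is small for all but the lowest genes, and intervals were not computed. The procedure was tested on simulated data with large planted changes in well-counted genes and a built-in effect shared by same-numbered samples. This checked the procedure under those settings and not with the spread of these samples. Python 3.11.15 with pandas 2.3.3 and matplotlib 3.10.9 was used for lists and plots.

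The members and the 68 gene lists were chosen with earlier results of these data known, and lists are described by counts and medians with no test of their own. Named genes were skn-1, unc-119 and, in each list, each described family and all genes, those with the largest changes among called genes that had a mean of at least 1 CPM and no overlap between groups, with any member of a list of at most 20 genes. Subgroups said to be formed after values were seen fall outside this rule.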

Additional observations from a re-analysis of the deposited data

Results flagged for a closer look

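In 168 groups of 4 samples (84 genes in SKN-1t[NNNN] and in wild type), 9 held a sample far from the other 3, where chance would give about 1 in 20 groups. The measure is the gap of the extreme sample to its neighbour as a share of the group's range, and groups beyond the 95% critical value of Dixon's test are given. In SKN-1t[NNNN], replicate 4 was the lowest for prdx-2 (0.886), sdz-8 (0.852), aat-2 (0.834) and lips-10 (0.844) and the highest for vit-2 (0.896), and replicate 1 was the lowest for ctl-1 (0.851). In wild type, replicate 2 was the highest for ctl-2 (0.912), replicate 3 for alh-6 (0.906) and replicate 1 for irg-5 (0.899).

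For 27 of the 84 genes followed gene by gene the change against wild type was not the same in SKN-1t[NNNN] as in SKN-1t[DNDD] by the direct edgeR test at an adjusted p below 0.01 and a difference over 2-fold. Both changes are taken against the same wild type samples, which cancel in the difference. Among genes of the oxidant and foreign-compound response the log2 differences were 1.21 for wdr-23, 1.46 for gcs-1, 1.44 for sdz-8, 1.65 for dhs-8, 1.25 for pgp-10 and -1.28 for cyp-35A5. For amino acid and osmolyte genes they were 1.77 for aat-2, 1.12 for hpd-1 and -1.54 for gpdh-1. For proteases and defence genes they were 1.05 for asp-14, -1.83 for cpr-1, 3.22 for clec-68, 1.55 for clec-3, -4.06 for clec-229, -1.93 for spp-18, -3.19 for thn-2, 1.17 for dod-24 and 1.74 for dod-17. For yolk, cuticle and secreted proteins they were -4.21 for vit-2, -6.71 for col-81, -6.36 for col-19, 1.36 for let-653, -2.03 for grl-16, -1.31 for ttr-44 and 1.13 for ttr-18. For genes with a sequence name only they were 1.79 for F56D5.3 and 1.09 for W06H8.2. Of the 27, 20 lost the call in at least 1 of 6 alternative fits. Most of the 84 were chosen for large changes in the same SKN-1t[NNNN] samples, so their share does not stand for all genes.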

How the results depend on the processing

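The replicate number was used as a block because the comparison was defined so, although the study's methods name no block. Same-numbered samples had correlated deviations from their group means of 0.0756 to 0.606 (mean 0.340, against -0.115 for other pairs), and 4 of 8 samples correlated best with their own number. Deviations from a group mean cancel within the group, so the mean for other pairs is largely set by that for same-numbered pairs. Without the block 997 genes rose and 869 fell, of which 849 and 721 were shared with the blocked fit. With a replicate omitted, 244 to 847 genes rose and 278 to 768 fell, lowest without replicate 2, and with replicates 1 and 2 only the counts were 501 and 463. With replicates 3 and 4 only they were 564 and 850, so 39.9% of calls were rises in place of 54.5%. A test against a 2-fold change gave 256 and 190, the 1.5-fold limit at an adjusted p of 0.05 gave 2160 and 1697, and DESeq2 gave 1123 and 1167. A fit of all 16 samples, which also tested a larger set of 14850 genes, gave 1135 and 1270. The median of all genes was -0.0041 in that fit and 0.107 in the main fit. In SKN-1t[NNNN] against SKN-1t[DNDD], the fit without the block gave 109 higher and 279 lower, the 8 samples alone 106 and 259, and fits with a replicate omitted 87 to 171 and 263 to 1279. Against SKN-1t[NDNN] the 8 samples alone gave 6 higher, and fits with a replicate omitted 0 to 1 higher and 30 to 53 lower. Most of the 84 genes followed gene by gene were chosen as called and without overlap in the main fit. Their calls and stable directions follow in part from that choice. None of the 84 changed direction in any alternative. Of the 84, 83 were called. Of these, 63 kept the call with any replicate omitted, and 22 lost it in the test against a 2-fold change. The gene unc-119 was called at the 1.5-fold limit. Most genes named only as members of a list are outside these counts, and several of them lost the call with a replicate pair omitted, as given above. Of 2346 list counts recomputed, 615 moved by over 1.5 times; the causes of these shifts were not tested. Depth limits only the genes near 0 in a group, where fitted fold changes depend on the prior count.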

Other observations

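A few smaller gene groups were not described above. Of 17 Skp1-related genes and cullins, skr-12 was lower in SKN-1t[NNNN] (log2 fold change -4.63) and none was called higher, with the call kept only without replicate pair 4. Of 4 flavin monooxygenases edgeR called none, 1 was higher and 2 lower at an unadjusted p below 0.05, and DESeq2 called 1 higher. Of 33 sperm genes outside the major sperm proteins, elt-1 was called higher (log2 fold change 1.62), a GATA factor that is also a hypodermis marker.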
